A study of Mus musculus with 6 samples.

Results

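The vacuolar ATPase is the proton pump that acidifies lysosomes and endosomes. Its V1 sector sits in the cytosol and hydrolyses ATP. Its V0 sector lies in the membrane, where the a subunit and a turning ring of proteolipids carry protons across, the d subunit joins ring and stalk, and small e subunits sit beside them. Accessory glycoproteins bind the V0 sector and take part in its assembly. TFEB, a basic helix-loop-helix factor, binds E-box motifs near the starts of lysosomal genes, and genes of this pump are among its known targets. The members here are the V0 and accessory genes in the array's annotation, taken as every symbol that starts with Atp6v0 together with Tcirg1, Atp6ap1 and Atp6ap2. This gave 10 genes with 19 probe sets of 1 symbol each, out of 12393 genes and 20380 such probe sets. Atp6v0a4 and Atp6v0e2 came in through the rule on symbols. Atp6v0c, which encodes the main ring subunit, and Atp6v0d2 had no probe set with 1 symbol and were not analysed here.

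RNA came from livers of wild-type C57 mice aged 1 month, with 1 Affymetrix array per mouse. In 3 mice an adenoviral vector for TFEB had been injected, and the other 3 had received no injection. Because the controls had neither injection nor vector, effects of these and of TFEB cannot be told apart. The promoter that drives TFEB and the time from injection to harvest are not given in the sources used here. Values are log2 levels, and a difference is the mean of injected minus the mean of not-injected livers. A call means that limma's test, adjusted over all genes, gave less than 0.05.

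The animals and arrays set the frame for what follows. All 8 measured hepatocyte markers lay above the upper quartile of every array. The probe set of Tfeb read 7.505, 7.591 and 7.470 without injection and 7.483, 7.784 and 7.458 with it, and the sequence of the transgene is not given, so this does not check the labels. Control probe sets for spike-in RNA were lower in injected livers, with a median difference of -0.32 over 18 hybridisation controls and -0.44 over 24 poly-A controls. The part of labelling or hybridisation in the members' differences was not tested. Correlations across probe sets were 0.991 to 0.997 among injected livers and 0.997 to 0.998 among the others.

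Promoter sequences of 3 members are shown because their starts hold the core of the motif that TFEB is known to bind. The sequences are from RefSeq (GRCm38.p6) and are matched by symbol. Each runs 5′ to 3′ on the gene's strand, with the motif in capitals. For Atp6v0b the stretch is chr4:117887330-117887429 on the minus strand and covers positions -100 to -1, where +1 is the annotated start. For Atp6v0d1 it is chr8:105566055-105566114 on the minus strand, positions -50 to 10. For Atp6v0e it is chr17:26676356-26676415 on the plus strand, positions -40 to 20. The fourth, of the V1 gene Atp6v1a, is chr16:44139359-44139419 on the minus strand, positions -160 to -100, and is given for comparison.
Atp6v0b: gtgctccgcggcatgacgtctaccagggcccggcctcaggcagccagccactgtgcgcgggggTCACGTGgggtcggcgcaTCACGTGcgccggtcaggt
Atp6v0d1: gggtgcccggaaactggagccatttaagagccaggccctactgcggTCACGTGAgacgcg
Atp6v0e: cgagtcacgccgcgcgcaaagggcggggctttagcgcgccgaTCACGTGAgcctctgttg
Atp6v1a: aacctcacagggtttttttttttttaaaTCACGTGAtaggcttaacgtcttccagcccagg

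The search covered both strands of windows of 300 bases, 250 before and 50 after each start, for the E-box core CACGTG and for the longer TCACGTG and TCACGTGA, each of which contains the shorter ones. RefSeq windows were held for 10 V0 and accessory genes, Atp6v0c among them, in 14 windows, because Atp6v0c and Tcirg1 have 3 each. TCACGTG was present in 3 of these 14 windows, against 3.77% of all 32851 windows. Counted by gene, it was present in 3 of the 9 measured members with a window, against 603 of 9887 tested genes with a window (6.10%). Atp6v0b holds it at both of its cores, which span positions -36 to -31 and -18 to -13. In Atp6v0d1 the core spans -3 to 3, across the start itself, and in Atp6v0e it spans 4 to 9. Both of these carry the palindrome TCACGTGA, which 0.974% of all windows hold. Windows of Atp6v0a1, Atp6v0a4, Atp6v0c, Atp6v0e2, Tcirg1, Atp6ap1 and Atp6ap2 held no CACGTG. Among the 9 V1 genes with a window, Atp6v1a was the 1 that held it.

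**Figure D1:**
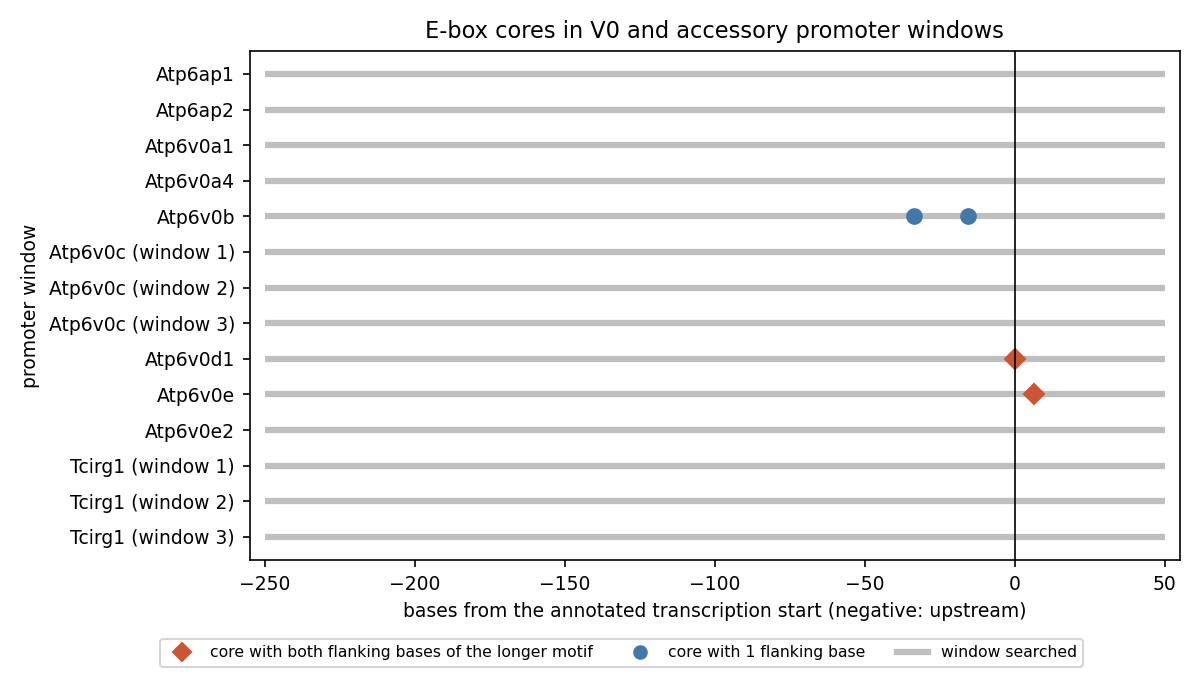
Promoter windows of V0 and accessory genes (grey bars, 250 bases before to 50 after each annotated start, at 0) with the E-box cores found in them. Atp6v0d1 and Atp6v0e carry a core with both flanking bases (diamonds) at or just after the start, Atp6v0b has 2 cores with 1 flanking base (circles) upstream of it, and the other windows hold none.

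Of the 8 measured V0 genes 4 were higher in TFEB-injected livers, as were both accessory genes, and the largest differences among members were in Atp6v0e and Atp6v0b. Over all 10 measured genes 6 rose, 0 fell and 4 did not pass limma's test, where 14.2% of all genes rose, 13.9% fell and 28.1% passed in either direction. The 6 were Atp6v0e, Atp6v0b, Atp6ap1, Atp6ap2, Atp6v0e2 and Atp6v0d1. All 10 differences were positive, from 0.08 to 1.02, with a median of 0.46 beside -0.05 over all genes. In 8 genes every injected liver lay above every not-injected liver, a pattern seen in 20.1% of all genes, and the opposite pattern, seen in 26.1% of all genes, occurred in 0 members. The uncalled 4 are the isoforms of subunit a. In these whole-liver samples more cells of a type and more RNA per cell cannot be told apart.

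**Figure D2:**
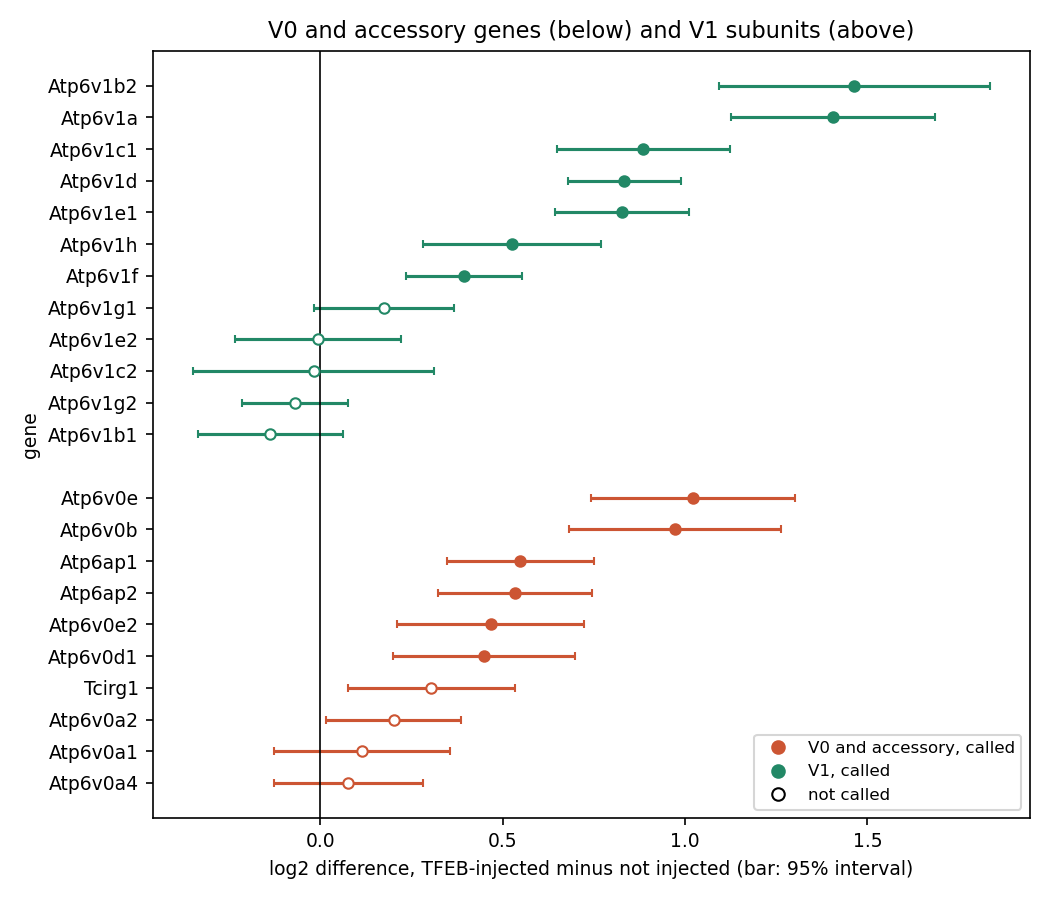
Log2 difference (TFEB-injected minus not injected, 3 livers per group) of each V0 and accessory gene and each V1 subunit, with 95% intervals; filled points passed limma's test at an adjusted p under 0.05. V0 and accessory genes run from 0.08 to 1.02, and V1 subunits from -0.14 to 1.46.

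Subunit e is a small hydrophobic protein of the V0 sector, encoded by Atp6v0e and by its paralogue Atp6v0e2. Atp6v0e read 10.91, 10.86 and 10.89 in the not-injected livers and 12.05, 11.62 and 12.05 in the injected livers. The groups were far apart, and injected replicate 2 was the lowest of its group. Its rise was 2.03-fold (1.02 ± 0.12 on the log2 scale, SE; 95% interval of the fold 1.67 to 2.46; limma adjusted p = 0.0013). By size of the difference it was gene 351 of 12393. Atp6v0e2 read 5.47, 5.52 and 5.84 without injection and 6.17, 6.02 and 6.04 with it. The groups did not overlap, but not-injected replicate 3 came close to the injected livers, and 2 of the 6 arrays had it below their lower quartile. Its rise of 1.38-fold (0.47 ± 0.11, adjusted p = 0.0182) was thus measured at a low signal. The call was lost without not-injected replicate 1 (0.40, adjusted p = 0.0558), not-injected replicate 2 (0.42, adjusted p = 0.0711) or injected replicate 1 (0.42, adjusted p = 0.0654).

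Atp6v0b encodes the b subunit, a proteolipid of the proton-carrying ring. Its probe set with the highest mean, 1437013_x_at, read 9.06, 8.99 and 8.95 without injection and 10.07, 9.68 and 10.17 with it. The rise was 1.96-fold (0.97 ± 0.12; 95% interval of the fold 1.61 to 2.40; adjusted p = 0.0018). Probe set 1416769_s_at gave much the same difference, 1.07 ± 0.11 (limma adjusted p = 0.000713 over all probe sets), from 7.22, 7.21 and 7.14 to 8.37, 8.02 and 8.40. The remaining one, 1425448_x_at, read 8.005, 8.224 and 8.076 without injection and 8.214, 8.175 and 8.158 with it, and its difference of 0.08 ± 0.08 did not pass (adjusted p = 0.46). Here the groups overlapped. The suffixes x and s mark probe sets with probes that can match more than 1 transcript. Taken on the same array, 1425448_x_at minus 1437013_x_at was -1.06, -0.77 and -0.88 in not-injected and -1.85, -1.51 and -2.01 in injected livers. The change in this gap was -0.89 (two-sided exact permutation p = 0.1, the smallest that 20 assignments allow, and 0.18 after Benjamini-Hochberg adjustment over the 9 pairs of a gene's highest probe set with its others). The gap of 1416769_s_at changed by 0.10.

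Atp6v0d1 encodes the ubiquitous d subunit, which couples the ring to the central stalk. In the not-injected livers it read 10.67, 10.69 and 10.68, a narrow range, and in the injected livers 11.08, 10.94 and 11.36. Every injected liver was higher, and they differed more among themselves (SD 0.21 against 0.013). The rise was 1.37-fold (0.45 ± 0.11; 95% interval of the fold 1.15 to 1.62; adjusted p = 0.019). Without not-injected replicate 1, 2 or 3 the difference stayed at 0.44, 0.46 and 0.45 but the adjusted p was 0.0547, 0.0618 and 0.0631. The call was thus lost in each fit with a control liver left out, although the difference hardly changed.

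Subunit a carries the proton path and differs between membranes: its isoforms a1, a2, a3 and a4 are encoded by Atp6v0a1, Atp6v0a2, Tcirg1 and Atp6v0a4. None of the 4 passed in the test of 1 probe set per gene. Tcirg1, known for acid secretion by osteoclasts and for lysosomes, came nearest. It read 8.26, 8.31 and 8.13 without injection and 8.57, 8.36 and 8.68 with it. The groups were just apart, by 0.05 between injected replicate 2 and not-injected replicate 2. The difference was 0.30 ± 0.10 (adjusted p = 0.0547). Without injected replicate 2 it was 0.39 and passed (adjusted p = 0.0095), as it did with array weights (adjusted p = 0.0121) and in a test limited to genes whose mean reached the median (adjusted p = 0.0383).

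Atp6v0a2, an isoform known from the Golgi and endosomes, read 8.10, 8.27 and 8.25 without injection and 8.36, 8.36 and 8.52 with it. The groups did not overlap. Its difference of 0.20 ± 0.08 missed the threshold (adjusted p = 0.096), with a 95% interval from 0.02 to 0.39. The other probe sets of this gene read 0.45 ± 0.18 (1424513_at, adjusted p = 0.111) and 0.19 ± 0.12 (1449870_a_at, adjusted p = 0.281). In 1424513_at the injected livers spanned 6.46, 6.51 and 7.15, so that replicate 3 stood above both others.

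Atp6v0a1, the broadly expressed isoform best known from neurons, had 4 probe sets that did not all go the same way. The highest one, 1417632_at, read 7.075, 7.119 and 7.108 without injection and 7.407, 7.003 and 7.233 with it. Injected replicate 2 lay below all controls, and the difference was 0.11 ± 0.10 (adjusted p = 0.44). Probe set 1459924_at fell by 0.49 ± 0.08 (adjusted p = 0.00428 over all probe sets), from 7.20, 7.38 and 7.30 to 6.85, 6.86 and 6.69, with no overlap. The gap between these probe sets on the same array went from 0.13, 0.26 and 0.19 to -0.56, -0.15 and -0.54, a change of -0.61 (two-sided exact permutation p = 0.1, the smallest possible, adjusted p = 0.18). Both others read low, with 6 of 6 arrays below the lower quartile for 1460650_at and 5 of 6 for 1425227_a_at. Their differences were 0.11 and 0.09 and did not pass. With the mean of the 4 probe sets the difference of Atp6v0a1 was -0.043 (adjusted p = 0.678), so its direction depends on the probe set. Atp6v0a4, the isoform known from kidney, read below the lower quartile in all 6 arrays, at 4.88, 5.09 and 4.86 without injection and 4.93, 5.03 and 5.11 with it. Its difference was 0.08 ± 0.09 (adjusted p = 0.536), with overlapping groups.

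The accessory subunits rose to a like extent. Atp6ap1 encodes the glycoprotein Ac45, which takes part in assembly and trafficking of the pump. Its only probe set, 1449622_s_at, read 10.53, 10.48 and 10.49 without injection and 11.11, 10.88 and 11.16 with it. As its suffix s marks, its probes can match more than 1 transcript. The groups were clearly apart, and the rise was 1.46-fold (0.55 ± 0.09; 95% interval of the fold 1.27 to 1.68; adjusted p = 0.0041). Atp6ap2 encodes the accessory subunit also known as the prorenin receptor. Its highest probe set, 1437688_x_at, read 11.70, 11.65 and 11.45 without injection and 12.15, 12.02 and 12.22 with it, a rise of 1.45-fold (0.53 ± 0.09; adjusted p = 0.0053). Both others agreed in direction and size, at 0.63 ± 0.08 for 1423662_at (adjusted p = 0.00191) and 0.60 ± 0.09 for 1439456_x_at (adjusted p = 0.00316). In all 3 probe sets of Atp6ap2 every injected liver exceeded every control.

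**Figure D3:**
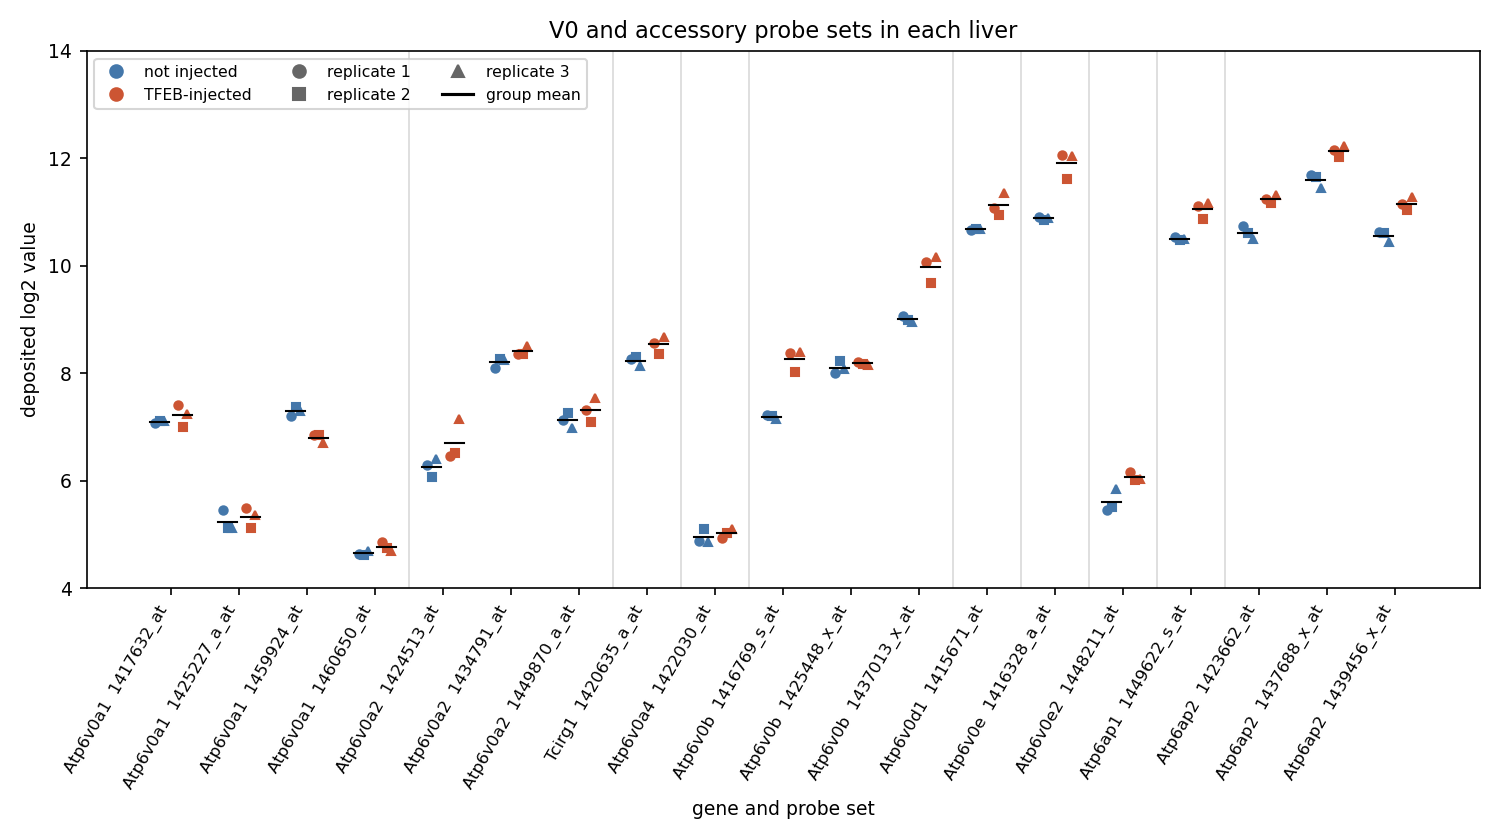
Deposited log2 value of each of the 19 V0 and accessory probe sets (x axis) in each of the 6 livers, by group (colour) and replicate (symbol), with group means as bars. Injected livers lie above all not-injected livers in 12 probe sets, below them in 1 (1459924_at of Atp6v0a1) and among them in 6.

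Over all 19 member probe sets 9 were higher, 1 was lower and 9 did not pass, beside 12.9% higher, 13.1% lower and 26.0% either way over all probe sets with 1 symbol. The groups were apart with injected livers higher in 12 probe sets (18.7% of all), apart with injected lower in 1 (25.9% of all) and overlapping in 6. The median probe-set difference was 0.45 for the members and -0.05 for all. The probe sets that did not follow their own gene were 1425448_x_at of Atp6v0b and 1459924_at of Atp6v0a1.

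The 3 injected livers differed in how far members rose. The median deviation from the not-injected mean over the 6 called members was 0.58 in injected replicate 1, 0.42 in replicate 2 and 0.67 in replicate 3. Replicate 2 was the lowest injected liver in 6 of these 6 genes. It was also the lowest in 65.6% of all 1765 genes called higher, so this was shared with many other genes. In Atp6v0e, replicate 2 lay 0.74 above the control mean and the others 1.17 and 1.16. The not-injected livers stayed between -0.15 and 0.24 for the called members. Without injected replicate 2 the number of members called was 7, and without not-injected replicate 1 or 2 it was 4. The number of all genes called also changed with the array left out, over the range given under processing below.

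**Figure D4:**
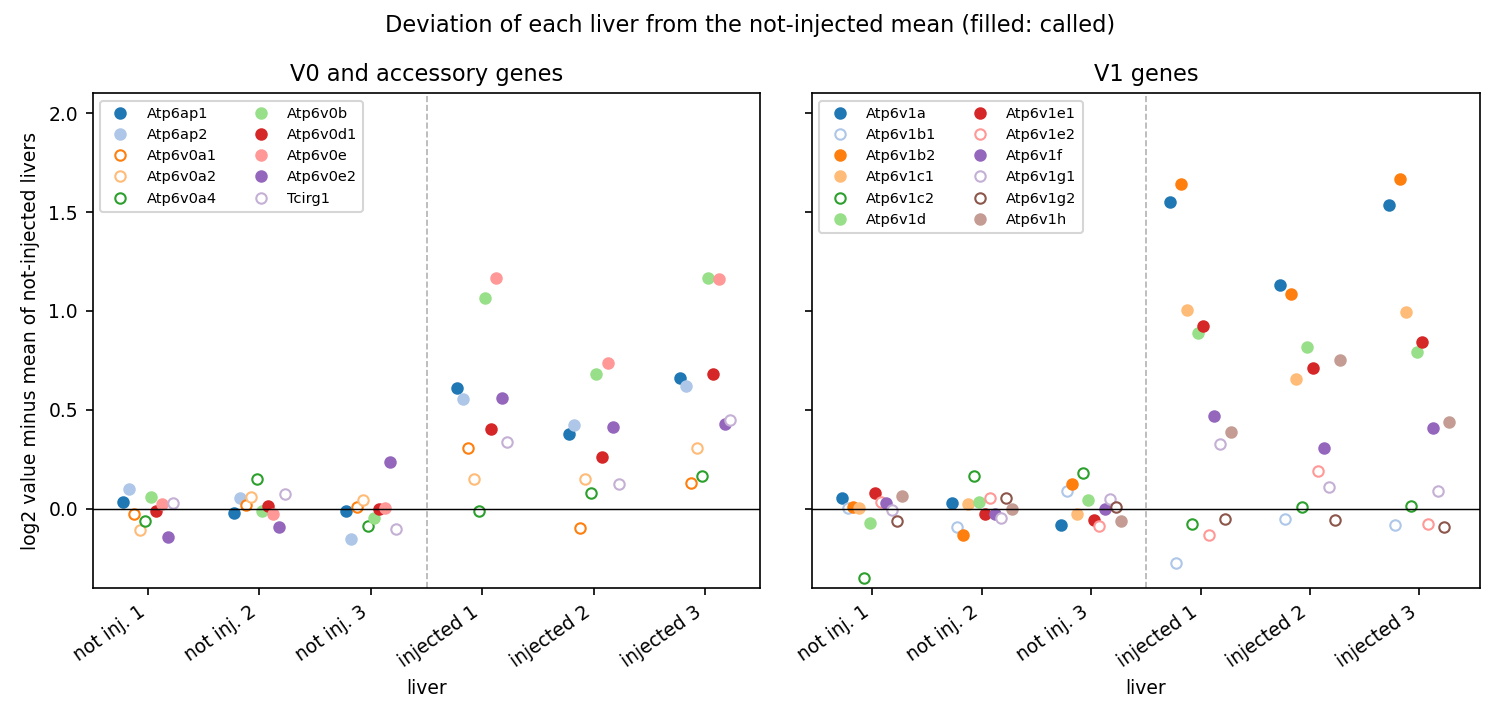
Log2 value of each gene in each liver minus the mean of the not-injected livers, for V0 and accessory genes (left) and V1 subunits (right); filled points are called genes, open points are not. Injected replicate 2 was the lowest injected liver for all 6 called V0 and accessory genes.

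In the V1 sector 7 of 12 measured subunits rose, 0 fell and 5 did not pass (14.2% of all genes rose). The catalytic subunit A, encoded by Atp6v1a, read 9.66, 9.63 and 9.52 without injection and 11.15, 10.73 and 11.14 with it. The nucleotide-binding B2 subunit, encoded by Atp6v1b2, read 8.63, 8.49 and 8.74 without injection and 10.26, 9.70 and 10.29 with it, a rise of 2.76-fold (1.46 ± 0.16, adjusted p = 0.0009). Its difference exceeded that of every V0 or accessory gene, although the difference between genes was not tested. Atp6v1d of the central stalk and Atp6v1e1 of the peripheral stalks rose by 0.83 ± 0.07 and 0.83 ± 0.08. The 5 that did not pass were Atp6v1b1, Atp6v1c2, Atp6v1e2, Atp6v1g1 and Atp6v1g2, with differences from -0.14 to 0.18. All of these but Atp6v1g1 are known as isoforms of other tissues. The V1 median was 0.46, beside 0.46 over all 10 V0 and accessory genes and 0.38 over the 8 V0 genes, and it was 0.83 with genes of lower mean level left out, where the members' median was 0.53. Over V0, accessory and V1 genes together 13 of 22 measured genes rose.

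Genes around the pump were mixed, and their counts stand beside 14.2% higher, 13.9% lower and 28.1% either way over all genes. Of 9 measured assembly factors and regulators of the pump 3 rose, 0 fell and 6 did not pass, with a median of 0.04. Tmem199, which encodes a factor of V0 assembly in the endoplasmic reticulum, went from 7.60, 7.57 and 7.61 to 8.27, 8.05 and 8.29 (0.61 ± 0.08, adjusted p = 0.002), and Tmem9b rose by 0.31 ± 0.06 (adjusted p = 0.01). Ccdc115, which encodes the partner of Tmem199 in V0 assembly, was among those that did not pass (-0.04, adjusted p = 0.667). The Rag GTPases, Ragulator and folliculin form the nutrient-sensing platform that docks on the pump at the lysosome. There 4 of 9 measured genes rose, 0 fell and the median was 0.30, with rises of 1.10 ± 0.07 for Flcn and 0.97 ± 0.08 for Rragc. Of 12 measured channels and exchangers of endosomes and lysosomes 4 rose, 1 fell and 7 did not pass, with a median of 0.06. The calcium channel Mcoln1 rose by 1.25 ± 0.10 and the sodium channel Tpcn1 by 0.39 ± 0.07 (adjusted p = 0.0083). The call of Tpcn1 was lost when its probe sets were averaged (0.17, adjusted p = 0.078). Mcoln2 was lower by 0.25 ± 0.07 (adjusted p = 0.0438), a call lost without any array except not-injected replicate 3 (adjusted p up to 0.14). The mitochondrial ATP synthase, a rotary enzyme related to the pump, had 7 of 15 measured genes higher, 0 lower and a median of 0.18.

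The genes most like the V0 and accessory genes were sought by the distance, over the 6 arrays, between their profile and the median profile of the 10 members, each taken minus its own not-injected mean. The nearest 5 were Hadhb (root mean square distance 0.025), Gng12 (0.027), Gna13 (0.029), Emc3 (0.034) and Hmg20b (0.036), all in log2 units. Hadhb encodes a subunit of the mitochondrial trifunctional protein of fatty acid oxidation, Gng12 and Gna13 encode subunits of G proteins, Emc3 a subunit of an endoplasmic reticulum membrane insertase, and Hmg20b a chromatin protein. Their differences lay between 0.41 and 0.44. This narrow range follows from the search for genes near the median profile, while the members themselves ran from 0.08 to 1.02.

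Markers of other liver cells also differed, and their part in the members' differences was not tested. Counts of calls in each list stand beside 14.2% higher, 13.9% lower and 28.1% either way over all genes. Of 17 measured Kupffer cell and macrophage markers 5 rose and 2 fell (Cd5l, Cd68, Lyz2, Mpeg1 and Ctss higher, Marco and Cd163 lower). The summed log2 level of this list was 150.1 to 156.2 without injection and 152.2 to 155.7 with it, ranges that overlap. Cd163, with a difference of -3.62, weighs heavily in this sum. Differences were positive in 13 of the 17 markers and negative in 4, with a median of 0.18. Of 11 sinusoidal endothelial markers 4 rose (Pecam1, Stab2, Lyve1 and Clec4g), and the summed level went from 91.2 to 92.6 in controls to 95.6 to 98.0 in injected livers. Of 5 measured B cell markers Jchain and Blnk rose, by 0.59 and 3.04, while Cd79a (-0.09), Cd79b (0.39) and Ms4a1 (0.40) did not pass. The summed level was 29.7 to 30.5 without injection and 34.0 to 34.8 with it, and most of that difference is Blnk. The neutrophil gene S100a8 rose (sums of 30.4 to 30.8 and 30.8 to 32.7), the stellate gene Reln fell (74.4 to 74.4 and 73.3 to 78.3), and none of 5 cholangiocyte or 7 T and NK cell markers was called. The 4 other neutrophil markers did not pass, and 3 of the 5 differences were negative (median -0.05). Nor did the 8 other stellate markers, where 6 of 9 differences were positive (median 0.12). Among hepatocyte markers Apob rose and Fga and Ambp fell, with sums of 115.0 to 115.2 and 114.4 to 114.8. Calls of Cd5l, Marco, Ctss, Pecam1, Clec4g, S100a8, Reln, Apob and Fga were lost in at least 1 fit with an array left out. In controls Jchain read 5.17, 5.16 and 5.56, Pecam1 5.56, 5.31 and 5.29, and S100a8 5.50, 5.28 and 5.48. The lower quartiles of these arrays were 5.49, 5.56 and 5.52, so these rises were measured at a low signal.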

How the data were processed

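The values used are the authors' deposited log2 levels, 1 per probe set and array. Per the submitters' processing notes, affy and RMA were used, and their versions are not given in the sources used here. RMA usually equalises the arrays, so a shift of all transcripts would be hidden, and differences at low signal shrink. No detection calls came with the values. Column medians were 7.11 to 7.15. Precision is limited by the number of arrays, 3 per group.

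Probe sets with 1 symbol in the platform annotation were kept. Each gene was represented by the probe set whose mean over all arrays, of both groups, was highest. Gene IDs of 12369 of 12393 genes were found in the RefSeq table. Differences were tested with limma 3.58.1 (R 4.3.3; lmFit, eBayes, two-sided, Benjamini-Hochberg over 12393 genes, and separately over 20380 probe sets), with no covariate and no filter. On simulated data 51.0% of genes changed by 0.5 and 91.0% of those changed by 1 (log2) were called. There only a small part of the genes was changed, with equal spread in both groups. In the real data 28.1% of genes were called, so these rates need not hold for them. The labels call the arrays biological replicates. Deviations from the group mean correlated weakly between same-numbered arrays (r 0.15, 0.08 and 0.02) and between differently numbered ones (r -0.18 to 0.07). With 3 arrays per group this does not settle whether the replicate numbers pair the samples.

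The members and gene lists were chosen with earlier results of these data known. Named genes are every member, the 4 called V1 subunits with the smallest p and any that fell, the 2 smallest p in each direction for the other pump-related lists, called cell type markers, and the 5 nearest profiles. Ccdc115 and Atp6v1f were named after their values were seen. Alternatives were a replicate block, an intensity trend, robust moderation, a limit to genes whose mean reached the median, the mean of probe sets, a second quantile normalisation, median centring, array weights and leaving out each array. Tables and plots used Python 3.11.15, numpy 2.4.6, pandas 2.3.3 and matplotlib 3.10.9.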

Additional observations from a re-analysis of the deposited data

How the results depend on the processing

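The number of members called higher was 6 with the replicate number as a block, with the intensity trend, with robust moderation, for genes whose mean reached the median, for the mean of probe sets, with quantile normalisation repeated and with arrays centred. In the fit limited to genes whose mean reached the median, Atp6v0a1, Atp6v0a4 and Atp6v0e2 were not tested, and Tcirg1 was among the 6. The number of members called was 7 with array weights and ran from 4 to 7 when 1 array was left out. V1 subunits called stayed at 7 under all of these, and no member gene or V1 subunit was called lower. Atp6v0e, Atp6v0b, Atp6ap1 and Atp6ap2 kept their calls in all 14 alternatives, with adjusted p up to 0.0227, while Atp6v0b had 0.71 when its probe sets were averaged. The difference of Atp6v0a1 turned to -0.043 when its probe sets were averaged, which is how that value is built. For genes whose mean reached the median the V1 median was 0.83, since low isoforms drop out, and 0 member probe sets were called lower, because 1459924_at was not tested there. All genes called numbered 1973 to 4378 when 1 array was left out, and 3348 with the replicate block against 3486 without it. With that block 1424513_at of Atp6v0a2 passed (0.45, adjusted p = 0.0407), and member probe sets called higher were 10.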

Other observations

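Over all genes tested that had a RefSeq promoter window, the motifs sought in the members can be set beside the calls, as a description without a test. Of 603 genes with TCACGTG in a window, 26.0% were called higher and 10.8% lower in injected livers, with a median difference of 0.05. Of 9284 genes without it, 13.7% were called higher and 14.5% lower, with a median of -0.05. With the palindrome TCACGTGA, 29.9% of 174 genes were called higher. The bare core CACGTG was held by 1069 genes, of which 20.2% were higher. Among V0 and accessory genes with values and a window, the 3 with TCACGTG were all called, with differences from 0.45 to 1.02, and 3 of the 6 without it were called, with differences from 0.08 to 0.55. The member Atp6v0a2 and the V1 gene Atp6v1b2 had no window. In the V1 sector Atp6v1a held TCACGTG and was called (1.41). Without it Atp6v1d (0.83), Atp6v1e1 (0.83) and Atp6v1f (0.39) were called, while Atp6v1b1, Atp6v1c2, Atp6v1e2 and Atp6v1g2 were not.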
